A study of Homo sapiens with 4 samples.

Results

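Chromosome 19 carried 246 of the 19974 protein-coding genes examined that bear a symbol made of ZNF and a number, with or without a closing letter, and these 246 zinc finger genes were taken by a rule on symbol and position, proposed with earlier results of these data known. Their histone marks were read in MCF10A, an immortalised and non-tumour-forming line of human mammary epithelial cells, grown in MEGM, a medium for such cells, to which cholera toxin had been added at 100 ng/ml. Chromatin immunoprecipitation of sonicated nuclei with TruSeq libraries was done once for each of 3 histone marks. These were trimethylation of lysine 4 of histone H3 (H3K4me3), dimethylation of lysine 79 (H3K79me2) and trimethylation of lysine 27 (H3K27me3). A library of input DNA, of which no peak list was analysed here, made 4 libraries in all. All 4 libraries came from the 1 line under 1 growth condition, so no treatment was compared, and what follows compares marks and gene sets.

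Most zinc finger genes of this chromosome encode proteins with tandem C2H2 fingers that bind DNA, and many also carry a KRAB domain. That domain recruits TRIM28, which brings the methyltransferase SETDB1 and heterochromatin proteins to the bound site, above all at transposable elements, where H3K9me3 is laid down. The family grew by repeated tandem duplication, so neighbours are often close relatives. Of the marks read here, H3K4me3 sits at active and poised promoters, H3K79me2 is written by DOT1L over the first part of transcribed genes, and H3K27me3 is the mark of Polycomb repression. H3K9me3, the mark known over the finger-encoding 3′ parts of many of these genes, was not among the marks read.

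For H3K4me3 and H3K27me3, the call needed peaks over 25% or more of a start window reaching 1000 bp to either side of the gene start. For H3K79me2, it needed 25% or more of an inward window, the first 5000 bp of the record. The start of 216 of the 246 genes came from the RefSeq promoter table of GRCh38.p14, and the other 30 were read at either end of the gene record. The strength of a peak is the authors' fold enrichment, a ratio over the background of the peak caller, and it is compared only within the list of 1 mark. With 1 library per mark, no difference given here has a replicate check or a test, and the read depth behind the peaks is unknown.

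The deposited lists held 67904 peaks of H3K4me3, 112870 of H3K79me2 and 393324 of H3K27me3, with folds up to 31.1, 7.47 and 11.1. Of 8 basal mammary markers, 7 were called for H3K4me3 and 7 for H3K79me2 (87.5% each, against 67% and 50.7% of all protein-coding genes). Among them were the keratin genes KRT5, KRT14 and KRT17. The exception was TP63, read at 0% of both windows. Elsewhere in its record or flanks it had H3K4me3 of up to 9.53-fold and 66347 bp of H3K79me2 at up to 3.24-fold. Of the blood markers PTPRC, CD3E and SPI1, SPI1 was called for H3K4me3 and none for H3K79me2. Of the endothelial PECAM1, CDH5 and KDR, KDR was called for H3K4me3 and PECAM1 for H3K79me2. Of the fibroblast COL1A1, COL3A1 and DCN, COL1A1 was called for H3K4me3 and DCN for H3K27me3, a call made at 7.52% of all genes. For H3K4me3 the blood, endothelial and fibroblast lists thus stood at 33.3% each, against 67% of all genes. The marker lists are short, and no test was made.

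The zinc finger genes of chromosome 19 largely carried the marks of active genes. H3K4me3 was called at 196 of the 246 (79.7%), against 67% of all protein-coding genes. H3K79me2 was called at 159 (64.6%), against 50.7% of all protein-coding genes. Both stood together at 157 (63.8%), against 49.4%. H3K27me3 was called at 1 gene (0.407%), against 7.52%. Of the remaining combinations, 39 genes had H3K4me3 without H3K79me2 (15.9%, against 17.5% of all genes), 2 had H3K79me2 without H3K4me3 (0.813%, against 1.14%) and 47 had none of the 3 calls (19.1%, against 28.1% of all genes). Anywhere in the record and 5000 bp around it, 219 genes had an H3K4me3 peak (89.0%, against 84.3% of all genes) and 216 an H3K79me2 peak (87.8%, against 75.6%). Among peaks with q of 0.05 or below, the counts were 210 (85.4%, against 78.5%) and 168 (68.3%, against 56.2%). Set beside other genes of the same chromosome, the zinc finger genes were called more often for both active marks. Of the 1205 others, 61.6% were called for H3K4me3, 43.6% for H3K79me2 and 7.88% for H3K27me3. Set beside the 263 ZNF genes on other chromosomes, they were called less often, since those stood at 87.1%, 74.1% and 1.90%.

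**Figure D1:**
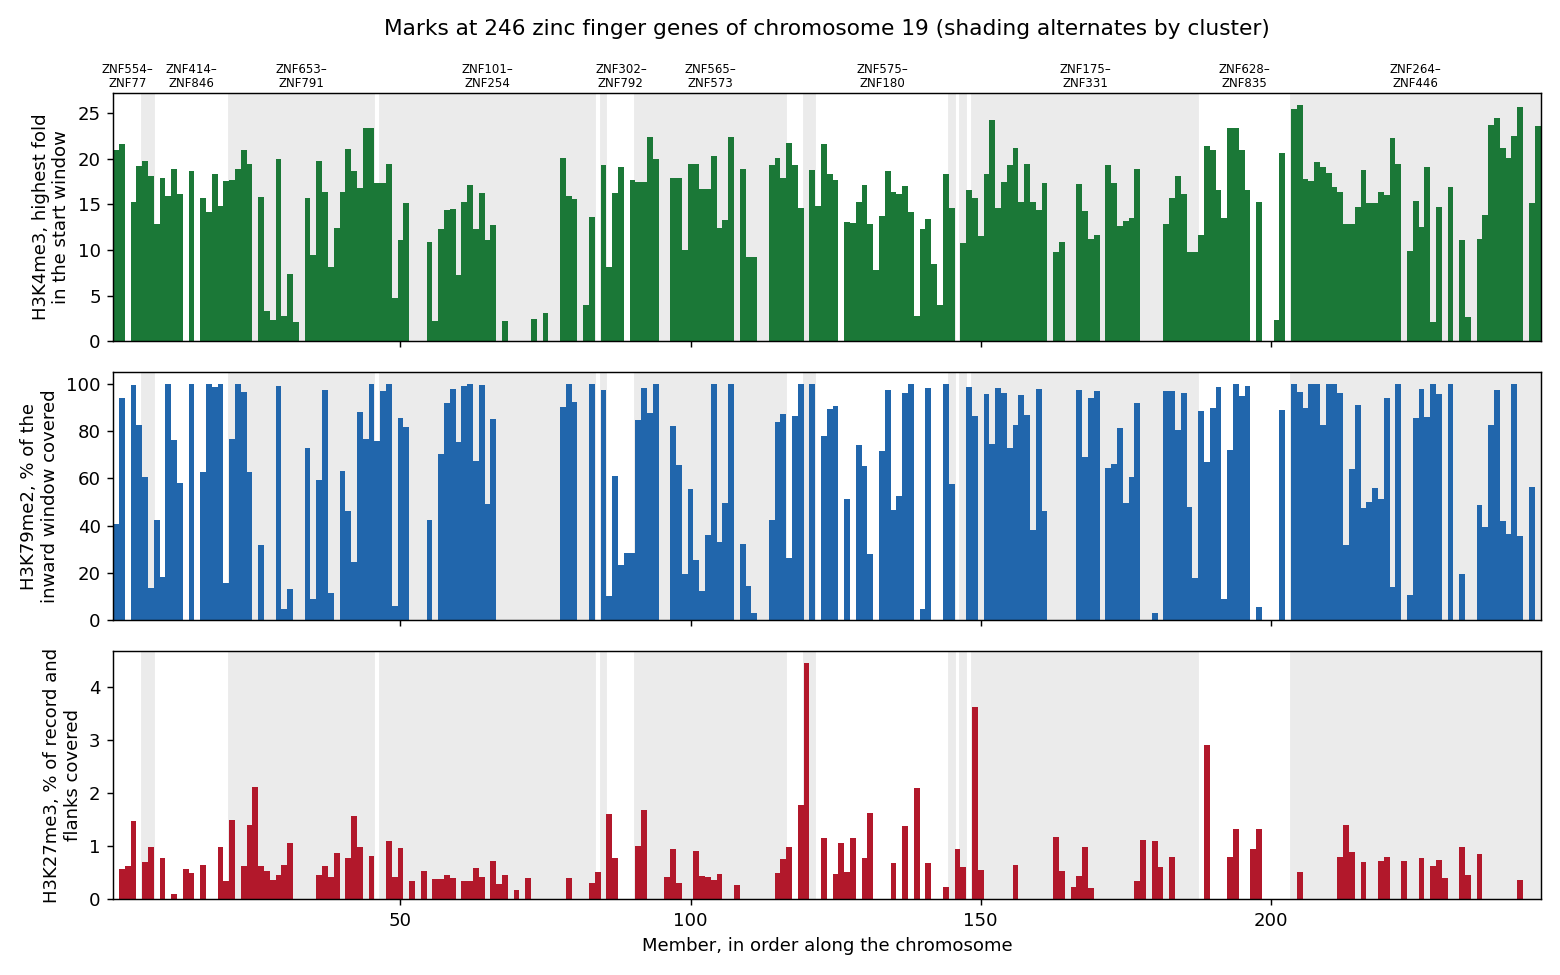
Highest H3K4me3 fold within 1000 bp of the start (top), % of the inward 5000 bp covered by H3K79me2 peaks (middle) and % of the record and 5000 bp around it covered by H3K27me3 peaks (bottom), 1 bar for each of the 246 genes in order along the chromosome, with clusters shaded in turn. H3K4me3 reached 25.9-fold, while H3K27me3 covered at most 4.47% of any gene with its flanks.

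The highest H3K4me3 folds at a start were those of ZNF805 at 25.9, ZNF324B at 25.7, ZNF264 at 25.5, ZNF8 at 24.4 and ZNF613 at 24.2. The first 4 of these lie in the telomeric cluster from ZNF264 to ZNF446. These 5 were picked for their H3K4me3 fold, and their H3K79me2 is given beside it. Peaks of H3K79me2 covered 100% of the inward window of ZNF264, 97.3% of that of ZNF8, 96.4% of that of ZNF805, 74.5% of that of ZNF613 and 35.6% of that of ZNF324B. Over all 246 genes the median H3K4me3 fold at the start was 15.2, and across the 246 the H3K4me3 fold and the share of the inward window under H3K79me2 had a Spearman rho of 0.66. That figure is a description across genes that share libraries and neighbours. The promoter of ZNF264, by position the first gene of the telomeric cluster, is shown as a marked start, from RefSeq on GRCh38.p14 (chr19:57191250-57191549, plus strand). It covers 250 bases before the start and 50 after it, with CpG dinucleotides in capitals.
ZNF264: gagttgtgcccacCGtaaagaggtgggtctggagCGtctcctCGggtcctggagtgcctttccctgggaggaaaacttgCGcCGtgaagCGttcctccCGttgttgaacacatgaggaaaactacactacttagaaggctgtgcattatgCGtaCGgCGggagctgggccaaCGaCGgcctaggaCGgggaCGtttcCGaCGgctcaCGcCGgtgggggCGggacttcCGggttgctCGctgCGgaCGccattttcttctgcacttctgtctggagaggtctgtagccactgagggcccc
It holds 23 CpG dinucleotides, an observed over expected ratio of 0.84.

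At their starts, the H3K4me3 peaks of these genes had a lower median width than in the other sets. At the 182 starts from the promoter table with a peak in the window, the widest peak had a median of 2554.5 bp, against 3206 bp at ZNF genes on other chromosomes, 2974 bp at other genes of chromosome 19 and 3454 bp at all genes. Peaks over 5000 bp stood at 7 of the 182 (3.85%), against 18.3%, 17.2% and 24.1% in the same order of sets. The peaks ended sooner on both sides of the start. They reached a median of 789.5 bp before it and 1605.5 bp past it, against 973 bp and 1994 bp at ZNF genes elsewhere, and between 2 and 3 kb past the start H3K4me3 covered 9.7% of the bin on average, against 30.1% there. Over all H3K4me3 peaks in the records and flanks, those away from starts included, the order was the other way, with a median of 2130 bp, against 1613, 1409 and 1033 bp. Neither difference in width was tested.

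**Figure D2:**
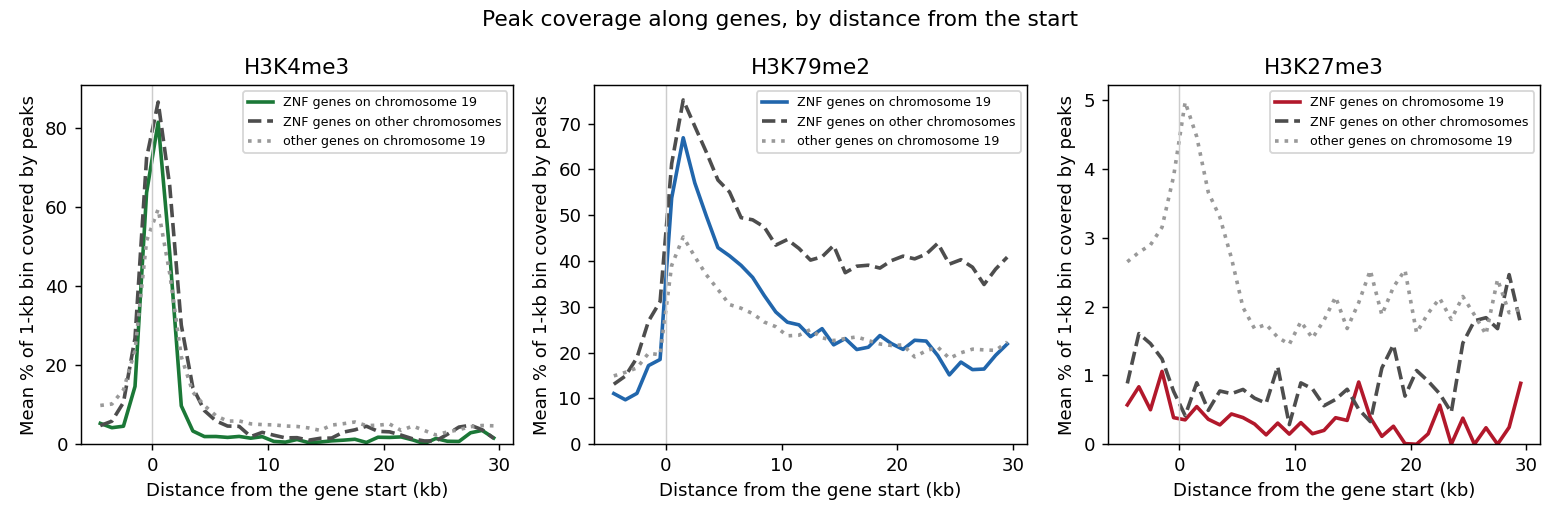
Mean % of each 1-kb bin covered by peaks, by distance from the start in kb, for ZNF genes on chromosome 19 (solid), ZNF genes on other chromosomes (dashed) and other genes of chromosome 19 (dotted). H3K79me2 of the solid line stood at 66.9% in the bin from 1 to 2 kb and at 20.7% in the bin from 20 kb, where the dashed line stood at 41.1%.

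H3K79me2 was present over many of these genes. The 728 peaks in their records and flanks had a median of 2.23-fold, against 2.19-fold near ZNF genes on other chromosomes, 2.23-fold near other genes of chromosome 19 and 2.15-fold near all genes. Of these peaks 26.9% had a q of 0.05 or below, against 20.7%, 25.9% and 15.5%. Its peaks covered 1781052 bp of the 246 records in sum, with a median of 21.1% of a record, against 35.0% at ZNF genes elsewhere and 5.99% at other genes of chromosome 19. At least 50% of the record was covered at 58 genes (23.6%, against 27.4% of all genes), and 39 genes had no covered base (15.9%, against 31.0% of all genes). The gene with the most was ZNF91, a repressor of SVA retrotransposons, with 55819 bp in its record of 90468 bp. ZNF83 had 47067 bp, ZNF254 had 42562 bp, ZNF431 had 40497 bp and ZNF430 had 36417 bp. The longest single peak, 36170 bp, began just inside ZNF430 and lay over most of that gene.

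The far end of the strengths was thinner. Of the 728 peaks 1.51% had a −log10 q of at least 5, a stricter limit on the caller's q, against 2.75%, 4.70% and 2.53% in the same order of sets. With peaks of a q of 0.05 or below, 134 of the 246 genes kept the H3K79me2 call (54.5%, against 43.4% of all genes). With a −log10 q of at least 5, 10 kept it (4.07%, against 12.4%), so that there the order of the sets turned round. These 10 were ZNF317, ZNF121, ZNF562, ZNF490, ZNF791, ZNF146, ZNF296, ZNF460, ZNF543 and ZNF304, and they were named after their values were seen. The strongest peak, 6.01-fold and 24276 bp wide, lay over ZNF121, of whose record H3K79me2 peaks covered 97.0% in sum. ZNF146, whose protein is built of fingers with no KRAB domain, had 5.41-fold, and ZNF317 had 5.20-fold. A fold of at least 5 left 3 (1.22%, against 3.5% of all genes). H3K4me3 moved little under the same limits, at 191 genes with q of 0.05 (77.6%, against 65.6% of all genes), 187 with −log10 q of 5 (76.0%, against 63.2%) and 186 with fold of 5 (75.6%, against 62.5%). Both active marks together were called at 132 of the 246 genes (against 42.8% of all genes), 10 (4.07%, against 12.2%) and 3 (1.22%, against 3.4%). ZNF296, whose mouse counterpart acts in embryonic stem cells, stands in a record of 4979 bp, of which H3K79me2 covered 57.7% at up to 4.39-fold.

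Along the chromosome the genes fell into 20 groups with gaps of no more than 500 kb between neighbours. Of these, 10 held 5 or more genes and 232 genes in all, 3 held 2 to 4 genes, and 7 were single genes. H3K4me3 was called at 59.5% to 95.7% of the genes of the 10 larger clusters and H3K79me2 at 51.4% to 80.0%. The cluster from ZNF264 to ZNF446 at the telomere of the long arm was the largest, with 37 of its 43 genes called for H3K4me3 and 33 for H3K79me2. It began with 19 genes in a row called for H3K4me3, from ZNF264 to ZNF551. The cluster from ZNF575 to ZNF180 had the highest H3K4me3 share, 22 of 23, but 15 called for H3K79me2, and 18 genes in a row from ZNF45 to ZNF180 were called for H3K4me3. Its first gene, ZNF575, had 14.8-fold H3K4me3 over 95.0% of its window with 0% of the inward window under H3K79me2, while its last, ZNF180, had 18.3-fold and 99.7%.

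**Figure D3:**
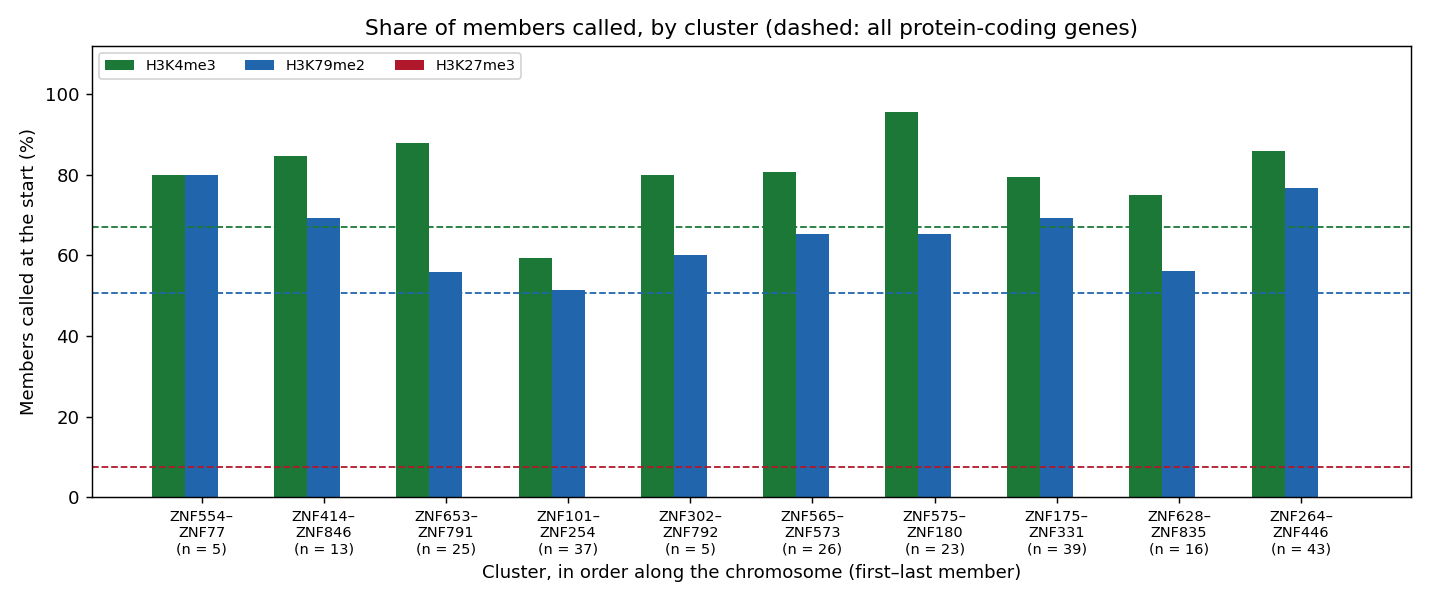
Share of genes called at the start for each mark (%, bars) in the 10 clusters of 5 or more genes, in order along the chromosome, with dashed lines for all protein-coding genes at 67%, 50.7% and 7.52%. The cluster from ZNF101 to ZNF254 was lowest for both active marks, at 59.5% and 51.4%, and none of the clusters shown had a gene called for H3K27me3.

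The other larger clusters had the following counts. From ZNF175 to ZNF331, 31 of 39 genes were called for H3K4me3 and 27 for H3K79me2. ZNF175, known as a suppressor of the HIV promoter in macrophages, had 15.7-fold H3K4me3 and 86.4% of its inward window under H3K79me2, and ZNF331 had 9.81-fold and 17.7%. From ZNF565 to ZNF573 the counts were 21 and 17 of 26, from ZNF653 to ZNF791 they were 22 and 14 of 25, and from ZNF628 to ZNF835 they were 12 and 9 of 16. The 13 genes from ZNF414 to ZNF846 had 11 and 9 calls. The small clusters from ZNF554 to ZNF77 and from ZNF302 to ZNF792, with 5 genes each, had 4 and 4 and 4 and 3. At their ends ZNF554, ZNF77, ZNF414, ZNF653, ZNF792, ZNF565, ZNF573 and ZNF628 had both calls, ZNF302 and ZNF846 had H3K4me3 alone, and ZNF835 had no peak.

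The 7 single genes differed widely. ZNF333, ZNF507, ZNF296 and ZNF473 had both active calls, with H3K4me3 of 17.3-, 19.3-, 14.6- and 16.6-fold. ZNF507 had H3K79me2 over 81.4% of its record. ZNF473 encodes a component of the machinery that cuts the 3′ ends of histone pre-mRNAs. ZNF536, a gene known from the nervous system and the longest record at 487995 bp, had no peak of H3K4me3 or H3K79me2 in its start windows, and H3K27me3 covered 0.52% of its record and flanks. ZNF541, a gene of meiosis in the mouse testis, had no active call either, with 8.80% of its start window under H3K27me3. ZNF114 had a 10.7-fold H3K4me3 peak over 21.9% of a window at an end of its record, just under the 25% required.

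The cluster from ZNF101 to ZNF254 held the longest run of unmarked genes. It spans 4.46 Mb of the short arm and holds 37 genes. Of these, 22 were called for H3K4me3 and 19 for H3K79me2, and 4 had no peak of any mark. The 10 genes from ZNF66 to ZNF100 all had both calls, with H3K4me3 between 7.27-fold at ZNF714 and 17.1-fold at ZNF708. The next 11, from ZNF43 to ZNF730, had none called for H3K79me2 over 1.34 Mb (chr19:21804946-23147221), where no other protein-coding gene lies. Within it 1 gene, ZNF492, was called for H3K4me3, at 2.39-fold over 25.4% of its window. The whole stretch held 8 H3K4me3 peaks of at most 4.45-fold, 11 H3K79me2 peaks of at most 2.39-fold and 12 H3K27me3 peaks of at most 3.08-fold. ZNF257, ZNF729, ZNF99 and ZNF728 had no peak at all, and the long genes ZNF208, ZNF676 and ZNF730 had no call. The run ended at ZNF724, with 20.1-fold H3K4me3 and 90.3% of the inward window under H3K79me2, followed by ZNF91 with 15.9-fold and 100%. ZNF675 then had 15.6-fold, ZNF681 no peak at the start, ZNF726 3.93-fold H3K4me3 without H3K79me2, and ZNF254 13.6-fold.

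**Figure D4:**
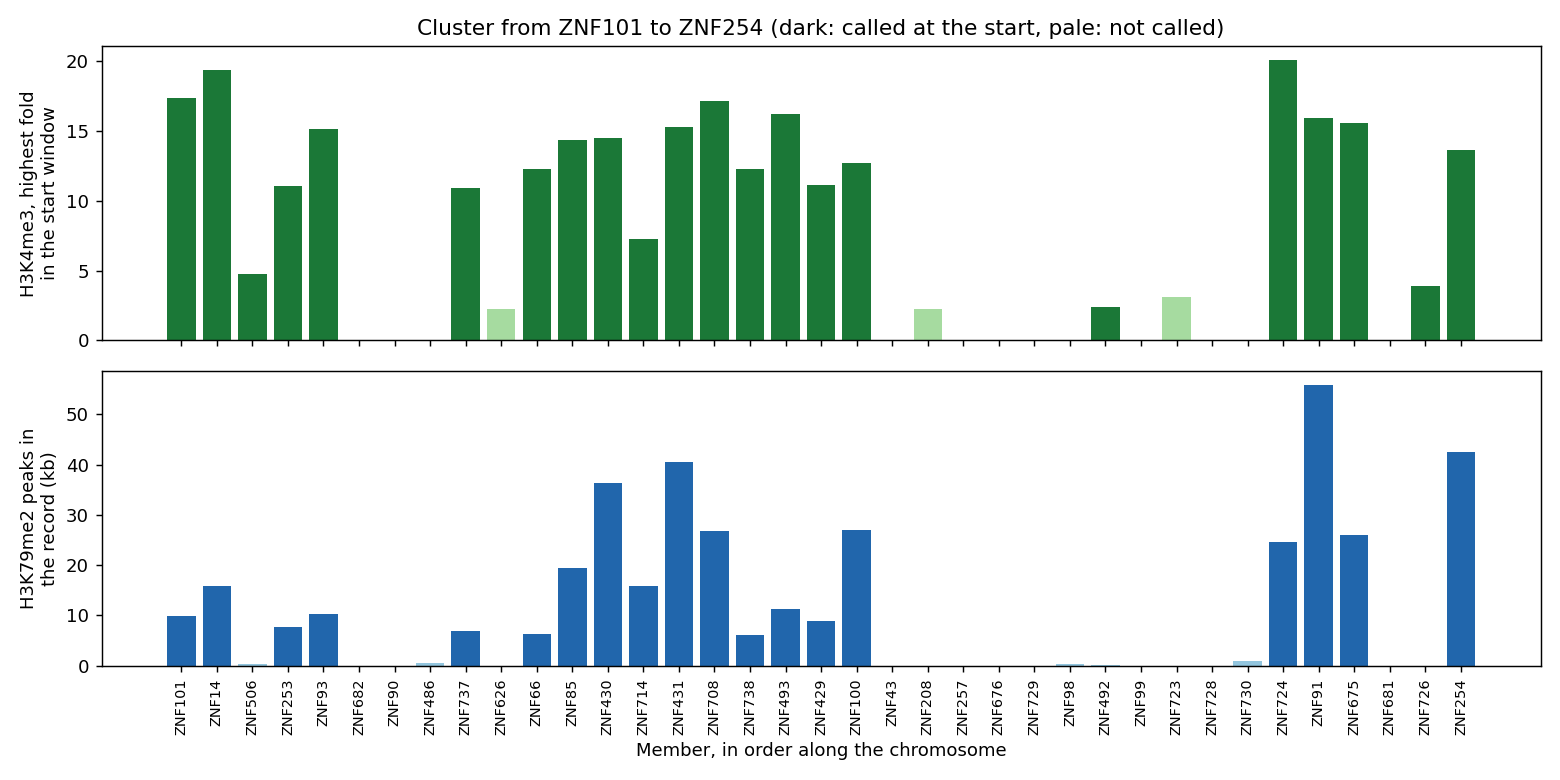
Highest H3K4me3 fold in the start window (top) and H3K79me2 peaks in the record in kb (bottom) for the 37 genes from ZNF101 to ZNF254 in order along the chromosome, dark where the gene was called and pale where it was not. The 11 genes from ZNF43 to ZNF730 were without an H3K79me2 call, between 10 genes with both calls and the marked trio ZNF724, ZNF91 and ZNF675.

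Marked and unmarked genes of this cluster had closely related promoters. The promoters of ZNF91, which was marked, and of ZNF208, which was not, are shown for this reason, from RefSeq on GRCh38.p14 (chr19:23395422-23395721, minus strand, and chr19:22010894-22011193, minus strand), with CpG in capitals.
ZNF91: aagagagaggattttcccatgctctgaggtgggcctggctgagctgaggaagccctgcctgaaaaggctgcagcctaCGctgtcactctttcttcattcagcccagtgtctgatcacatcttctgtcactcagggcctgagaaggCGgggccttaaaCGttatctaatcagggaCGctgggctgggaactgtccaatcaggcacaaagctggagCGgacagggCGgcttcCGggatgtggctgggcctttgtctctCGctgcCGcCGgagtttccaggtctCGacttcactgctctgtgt
ZNF208: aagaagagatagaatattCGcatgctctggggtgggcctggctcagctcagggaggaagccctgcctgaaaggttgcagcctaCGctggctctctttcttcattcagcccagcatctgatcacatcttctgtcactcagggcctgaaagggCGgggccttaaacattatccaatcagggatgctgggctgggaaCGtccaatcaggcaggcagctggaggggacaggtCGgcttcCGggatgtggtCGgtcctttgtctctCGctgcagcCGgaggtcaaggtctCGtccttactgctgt
Aligned end to end, they had 264 same bases over 307 alignment positions (86.0%), the closest of the 215 promoters aligned with that of ZNF91. ZNF91 holds 11 CpG dinucleotides and ZNF208 holds 10. ZNF208 had H3K4me3 of 2.26-fold over 8.50% of its window and no H3K79me2. The same resemblance ran through the cluster. Of the 28 other promoters there, 22 had at least 70% identity with that of ZNF91, while the highest among 187 genes outside the cluster was 60.8%. Of these 22, 13 were called for H3K4me3 and 9 were not. The 13 had a median of 10 CpG dinucleotides and a median identity of 80.8%, and the 9 likewise 10 and 80.1%, and in both groups the CpG counts ran between 8 and 16. ZNF431, at 84.3% identity, and ZNF486, at 83.0%, are a further marked and unmarked example. Reads from promoters this alike can match more than 1 place, and the placing of such reads by the authors' pipeline was not tested.

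H3K4me3 was also read by CpG content over all the promoters with an entry. The ratio of observed to expected CpG, in which a value near 1 means no depletion, had a median of 0.76 over 216 promoters, and its Spearman rho with the covered share of the start window was 0.35. That is a description across genes of the same library. Between 0.2 and 0.4, 5 of 11 promoters were called for H3K4me3 (45.5%), against 60.0% of ZNF genes on other chromosomes and 23.7% of all genes in that range. Between 0.4 and 0.6, 28 of 35 were called (80.0%), against 73.1% and 53.7%. Between 0.6 and 0.8 the shares were 84.4%, against 96.6% and 83.8%. At 0.8 and over, 80 of 92 were called (87.0%), against 95.5% and 93.4%. Under 0.2 there was 1 gene, which was not called, against 11.8% of all genes. The cluster from ZNF101 to ZNF254 held 7 of the 11 promoters between 0.2 and 0.4 and 18 of the 35 between 0.4 and 0.6. Outside that cluster 1 of 4 and 16 of 17 were called in these ranges, so the lower of them rests on few genes.

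**Figure D5:**
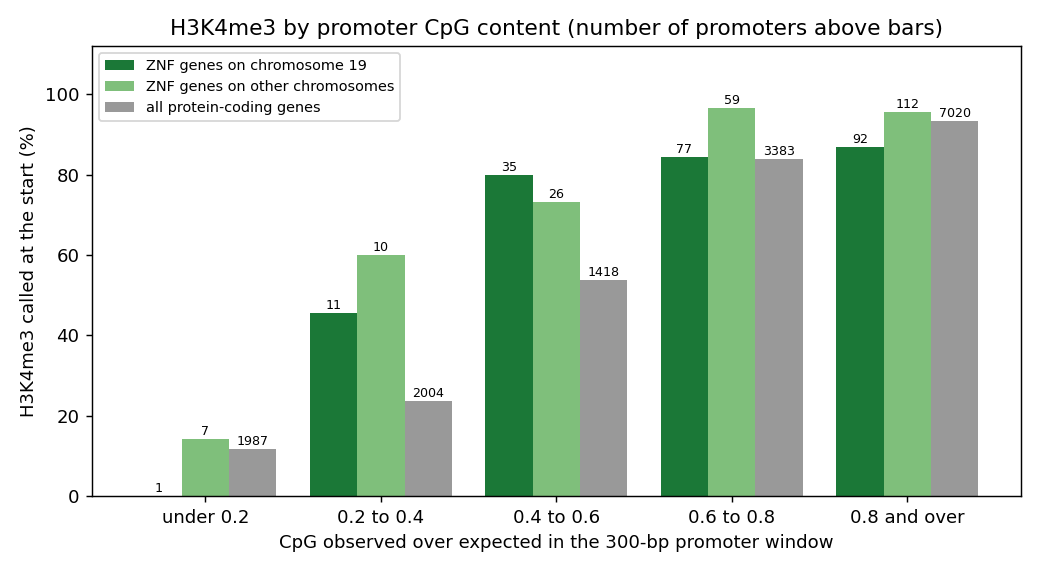
Share of genes called for H3K4me3 (%) by observed over expected CpG in the 300-bp promoter window, for ZNF genes on chromosome 19, ZNF genes on other chromosomes and all protein-coding genes, with the number of promoters above each bar. In the range from 0.4 to 0.6 the share was 80.0% on chromosome 19, against 53.7% of all genes.

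Of the 50 genes without the H3K4me3 call, 27 had no H3K4me3 peak in the record or 5000 bp around it. Another 11 had peaks under 5-fold alone, and 12 had a peak of at least 5-fold in the record or flanks. At ZNF114 that peak reached into a start window, over 21.9% of it. Among these 12, ZNF574, ZNF529, ZNF540 and ZNF600 had peaks of 21.0-, 21.9-, 19.3- and 19.3-fold. Such a peak can belong to another gene. The record of ZNF540 holds that of ZNF571, and the 19.3-fold peak of ZNF540 lay at an end of ZNF571. The record of ZNF600 overlaps that of ZNF28 by 24226 bp. ZNF529 and ZNF875 also had H3K79me2 over 44.4% and 40.6% of their records. Which start was in use at these 12 genes, and to which gene each peak belongs, was not tested. Both genes with H3K79me2 and no H3K4me3 call belong here. ZNF587B lay wholly under H3K79me2 of 3.88-fold, with H3K4me3 over 18.7% of its window and 14.7-fold elsewhere in its record or flanks. ZNF30, read at either end, had 28.5% of an inward window under H3K79me2 and 17.4-fold H3K4me3 outside the windows at its ends. Among the longest records without the call, ZNF578 had H3K4me3 of at most 3.73-fold anywhere in its record and flanks.

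The 27 genes with no H3K4me3 peak included CpG-rich promoters. Of the 20 with a promoter entry, 14 had an observed over expected ratio of at least 0.6. Among all genes without an H3K4me3 peak, 394 of 2314 (17.0%) had such a ratio. It was common to the zinc finger genes of this chromosome, at 169 of 216 promoters (78.2%), a larger share than 14 of 20. The contrast with all genes is therefore not particular to the zinc finger genes without a peak. The highest among the 20 were ZNF135 at 1.04, ZNF667 at 1.03, ZNF582 at 0.974, ZNF534 at 0.970 and ZNF347 at 0.961. ZNF582 and ZNF677, at 0.940, are known for promoter DNA methylation in human tumours, a mark not measured here. H3K27me3 was scarce there as well. Of the 27, only ZNF177 and ZNF677 had an H3K27me3 peak with a q of 0.05 or below, against 39.9% of 3143 genes without an H3K4me3 peak. The promoters of ZNF135 and ZNF667 are shown as CpG-rich starts without any of the 3 marks (chr19:58058989-58059288, plus strand, and chr19:56477296-56477595, minus strand, RefSeq on GRCh38.p14, CpG in capitals).
ZNF135: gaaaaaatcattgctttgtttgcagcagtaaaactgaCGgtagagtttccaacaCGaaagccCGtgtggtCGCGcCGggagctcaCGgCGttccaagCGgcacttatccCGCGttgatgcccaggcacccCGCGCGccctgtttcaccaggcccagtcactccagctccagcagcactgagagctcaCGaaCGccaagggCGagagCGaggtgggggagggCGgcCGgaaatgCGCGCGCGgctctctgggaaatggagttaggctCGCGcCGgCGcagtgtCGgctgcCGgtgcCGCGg
ZNF667: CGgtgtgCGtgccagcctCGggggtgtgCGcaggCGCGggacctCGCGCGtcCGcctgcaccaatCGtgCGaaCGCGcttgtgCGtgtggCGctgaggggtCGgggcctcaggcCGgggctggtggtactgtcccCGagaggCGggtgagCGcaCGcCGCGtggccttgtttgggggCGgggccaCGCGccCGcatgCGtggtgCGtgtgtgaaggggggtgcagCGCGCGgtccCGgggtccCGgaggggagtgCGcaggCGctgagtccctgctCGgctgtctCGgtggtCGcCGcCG
They hold 32 and 42 CpG dinucleotides. The nearest H3K4me3 peak stood 15178 bp from the start of ZNF135, at 2.36-fold, and 71625 bp from that of ZNF667, at 15.2-fold.

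In all, 12 genes had no peak of any mark in the record and 5000 bp around it (4.88%, against 3.38% of all genes). They were ZNF844, ZNF257, ZNF729, ZNF99, ZNF728, ZNF793, ZNF534, ZNF347, ZNF667, ZNF471, ZNF835 and ZNF135. ZNF667, ZNF471 and ZNF835 lie in 1 cluster, in which a stretch of 188354 bp around ZNF667 and ZNF471 (chr19:56406999-56595352) had no H3K79me2 peak. The same stretch holds ZNF470, which was called for H3K4me3. ZNF534 and ZNF347 lie in the cluster from ZNF175 to ZNF331, which also holds ZNF83 with its long H3K79me2 peak.

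H3K27me3 over the zinc finger genes was sparse and weak. A peak of at least 1 bp touched the record or its flanks at 118 genes (48.0%, against 65.1% of all genes). With a q of 0.05 or below the count was 9 (3.66%, against 26.9%). At the start, 0 genes were called under any of the stricter limits, against 4.74% of all genes with q of 0.05, 1.14% with −log10 q of 5 and 1.57% with fold of 5. The 171 peaks near these genes had a median width of 165 bp, which is also the narrowest width in the list, and the strongest stood at 4.23-fold. Covered bases made up 0.370% of the pooled records and flanks, against 2.50% for ZNF genes on other chromosomes and 2.96% for other genes of chromosome 19. The gene with the largest share was ZNF574, at 4.47% of its record and flanks, followed by ZNF175 at 3.64%, ZNF579 at 2.91%, ZNF491 at 2.13% and ZNF233, where 535 bp were covered. ZNF574 was the 1 gene with the call, with 30.1% of its start window covered at up to 3.58-fold. The same gene had a 21.0-fold H3K4me3 peak 6213 bp from that start and H3K79me2 over 58.3% of its record. ZNF175 and ZNF579 had both active calls, while ZNF491 had neither. The next gene outside the threshold was ZNF749, with 11.2% of its window covered.

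The 25% threshold mattered more for H3K79me2 than for H3K4me3. H3K4me3 was called at 202 genes with 1 bp of the window, 196 with 25% and 192 with 50%. For H3K79me2 the counts were 182, 159 and 130. The genes nearest the threshold were these. For H3K4me3, ZNF587B and ZNF114 lay just outside at 18.7% and 21.9%, and ZNF492 and ZNF233 just inside at 25.4% and 29.7%. For H3K79me2, ZNF599 and ZNF709 lay outside at 23.3% and 24.8%, and ZNF345 and ZNF546 inside at 25.4% and 26.3%.

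Some genes shared a marked start. In 7 cases 1 H3K4me3 peak held the starts of 2 zinc finger genes, and in 6 of these the pair ran head to head from starts 22 to 328 bp apart. Both genes were called for H3K79me2 in 4 of the 6 pairs. Taken singly, 64.6% of the 246 genes and 50.7% of all protein-coding genes had this call. ZNF565 and ZNF146 began 22 bp apart under a peak of 17.5-fold, with H3K79me2 over 84.7% and 98.0% of their inward windows. ZNF490 and ZNF791 shared 23.4-fold H3K4me3 and had 76.5% and 100%. ZNF829 and ZNF568 shared 16.6-fold with 12.5% and 36.2%, which left ZNF568 alone with the call. ZNF569 and ZNF570 shared 9.21-fold with 14.7% and 2.94%, so neither was called. At such pairs the H3K4me3 of 1 gene cannot be told apart from that of the other. Records of 24 genes overlap in 13 pairs, and 25 genes have another protein-coding start within 1000 bp. Of these 25, 22 were called for H3K4me3, where 79.7% of the 246 and 67% of all protein-coding genes were called. The share among all genes with so close a start is not given here, and no difference was tested.

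The promoters were also searched for 3 short motifs. The letters CCGGAAG, the core bound by ETS factors, stood on either strand of 98 of the 216 promoters (45.4%), against 34.1% at ZNF genes on other chromosomes, 13.0% at other genes of chromosome 19 and 14.2% of all 15812 promoters. The share was 46.1% with the H3K4me3 call and 42.1% without it. ATGGCGG, the core of YY1, stood at 8.80%, against 7.63% of all promoters, and GCATGCGC, the core of NRF1, at 4.17%, against 4.26%. Members of 1 cluster share promoter sequence by descent, so these counts are not independent, and no test was made. The promoters of ZNF264, ZNF91 and ZNF208 printed above hold the ETS letters, while those of ZNF135 and ZNF667 do not.

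The genes of the proteins that act with KRAB zinc fingers were themselves marked. Of 20 listed cofactor genes, 19 had both active calls, against 49.4% of all genes. None had the H3K27me3 call, against 7.52% of all genes. The list is short and was picked by name, and no test was made. TRIM28, which binds the KRAB domain, had H3K4me3 of 21.3-fold and H3K79me2 of 5.14-fold. SETDB1, which methylates H3K9, had 14.5-fold and 2.90-fold, and the heterochromatin protein gene CBX3 had 18.0-fold and 5.23-fold. The exception was DNMT3B, a de novo DNA methyltransferase, with 0% of both windows covered and a 22.6-fold H3K4me3 peak elsewhere in its record or flanks. ZNF274, which binds the 3′ ends of other zinc finger genes and recruits SETDB1 there, had 13.8-fold H3K4me3 and 39.5% of its inward window under H3K79me2. Around the 3′ ends themselves, the last 1 kb of the records had H3K79me2 over 10.7% of the bin on average, against 7.9% at ZNF genes on other chromosomes and 11.5% at other genes of chromosome 19.

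Listed zinc finger genes of chromosome 19 with other symbols were called less often at the start than the 246. Of 19 listed genes, 7 were called for H3K4me3 (36.8%, against 67% of all genes) and 5 for H3K79me2 (26.3%, against 50.7%). For H3K27me3, 1 was called (5.26%, against 7.52%). ZBTB7A had 19.6-fold H3K4me3, MZF1 had 18.2-fold, ZSCAN22 had 17.0-fold, and the KRAB genes ZFP14 and ZFP30 had 16.2- and 16.0-fold. The imprinted genes PEG3 and ZIM2 and the genes ZIM3, ZSCAN1 and ZSCAN4 had 0% of their start windows under H3K4me3. Elsewhere in its record or flanks, ZSCAN4 had a 19.4-fold H3K4me3 peak. ZBTB32 and ZSCAN5A, also uncalled, had 24.7-fold peaks there, while ZFP28, ZSCAN18, PEG3 and ZIM2 had none. This list too is short and was picked by name. The difference from the 246, and which start was in use at these genes, was not tested.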

How the data were processed

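The submitters' processing notes name build hg38, Bowtie2 2.3.1 and MACS2 2.1.1. The authors' deposited peak lists give a fold enrichment, or ratio to the background that the caller estimated, and a −log10 p and −log10 q per peak. Peak names carry p 0.05, and peaks were called per library, so replicates were not pooled. Control use, duplicates and reads matching several places are not given in the sources used here, so single values of near-identical genes are uncertain. Depth is unknown, and no interval is given.

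Genes came from RefSeq tables of GRCh38.p14. The 30 genes with no promoter entry were read at either end, and the calls for all genes followed the same rule. Named genes were those with the highest H3K4me3 fold, most H3K79me2 bases, largest H3K27me3 share, longest records without H3K4me3, cluster ends, single genes and genes with no peak. Others were named after their values were seen. Promoters were aligned globally with match 1, mismatch -1 and gap -2. This alignment, and the split of CpG ranges by cluster, were chosen after the data were seen. Protein features were planned and not analysed here. Members and lists were chosen with earlier results of these data known. Alternatives were stricter peaks, other shares, windows, flanks and cluster gaps. Scripts used python 3.11.15, numpy 2.4.6, scipy 1.17.1 and matplotlib 3.10.9, and the coverage functions were tested on simulated data.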

Additional observations from a re-analysis of the deposited data

How the results depend on the processing

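Over the counts of calls, clusters and genes with any peak, 41 alternative values lay within 1.5 times the reported one and 18 did not. With a −log10 q of at least 5 the number of genes with H3K79me2 at the start, 159 as reported, was 10, as was the number with both active marks, and with a fold of at least 5 each was 3. Genes with any H3K79me2 peak in the record and flanks were 13 and 4 under these 2 limits. H3K27me3 at the start, called at 1 gene, was at 0 with a q of 0.05 or below, with −log10 q of at least 5, with fold of at least 5 and with 50% of the window, and at 8 with 1 bp. Genes with any H3K27me3 peak were 9 with a q of 0.05 or below and 0 under both stricter limits. Genes with no peak, 12 as reported, were 28, 45 and 47 under the 3 peak limits and 19 with no flank. The 20 clusters became 26 at 250 kb and 16 at 1 Mb. Fewer peaks enter each stricter count by construction. An alternative added after the data were seen, the 216 genes with a promoter entry alone, gave 178, 145 and 1 calls for H3K4me3, H3K79me2 and H3K27me3. Among all genes with such an entry, 68.7%, 53.3% and 6.56% were called. No paired analysis was possible because each mark had 1 library. Weak H3K27me3 peaks at the caller's p limit, unknown depth and sequence shared between duplicated genes limit all counts, and their part was not tested.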
